A study of Saccharomyces cerevisiae with 6 samples.

Results

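The mitochondrial ribosomal protein genes of Saccharomyces cerevisiae were examined in 3 strains that differ at SSY1. They were taken as the rows of the value table whose platform symbol is MRPL, MRPS or RSM with a number, or MRP with a number. The rule found 67 rows for 67 of the 5711 genes measured, each with a single spot. By textbook assignment 38 encode proteins of the large subunit and 27 proteins of the small subunit. The remaining members, RSM22 and MRP8, are kept because their names match. Rsm22 is a methyltransferase-like protein and is not counted here with the small subunit. Mrp8 took its name from sequence similarity and is not an established ribosomal protein.

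Mitochondrial ribosomes translate the few messages of the mitochondrial genome, most of which encode core subunits of the respiratory chain and of the ATP synthase. Nearly all of their proteins are encoded in the nucleus, made in the cytosol and imported; the exception is Var1, which is encoded in the mitochondrion. In Candida albicans the mitochondrial and cytosolic ribosomal protein genes are expressed together, and in S. cerevisiae that coupling is much looser. SSY1 encodes the amino acid sensor of the plasma membrane, which induces amino acid permease genes when external amino acids are present.

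Total RNA of wt, ssy1KO and ssy1T9 was compared on 6 dual-colour arrays, with each of the 3 pairs of strains on 2 arrays in opposite dye orientations. The design text places all of them in the S288C laboratory background; ssy1KO by its name lacks SSY1, and ssy1T9 carries the natural variant of the series title, which the labels describe no further. The medium is not stated. Nor is it stated if both arrays of a pair hold RNA of separate cultures, and the spread behind the p-values is that among 6 arrays and possibly technical. Arrays are called KO/wt, T9/wt and T9/KO. Arrays KO/wt 1 and T9/wt 1 have wt in Cy5, and array 1 of T9/KO has ssy1T9 in Cy5.

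Values are log ratios per spot, taken as log2 and centred here on the median of all genes of each array. The base was assumed, so every fold rests on it. The direction is likely rather than stated: ratios were read so that SSY1 is low in the deletion strain, as it then is on each of the 4 arrays with ssy1KO, and SSY1 itself is therefore no further check. As deposited, the median over genes lay between -0.58 and -0.08 on the 6 arrays. Differences were estimated with limma in 1 fit over all genes and all 6 arrays with a dye term per gene, and a gene was called at an adjusted p under 0.05. The direction of a small difference is relative to the typical gene: without centring the median over all genes lay at 0.16 in ssy1KO and 0.17 in ssy1T9.

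Mitochondrial ribosomal protein genes shifted little in either mutant. In ssy1KO 3 members were higher than in wt, 8 were lower and 56 were not called. In ssy1T9 2 were higher, 11 were lower and 54 were not called. Both shares, 16.4% and 19.4% of the members, lie below the background, since 24.3% of all genes were called in ssy1KO and 26.2% in ssy1T9. By direction, 4.48% of members were higher in ssy1KO against a background of 13.8%, and 11.9% were lower against 10.5%. In ssy1T9 2.99% of members were higher against 14.1% of all genes, and 16.4% were lower against 12.1%.

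The family as a whole lay slightly below the typical gene. The median member was at log2 -0.08 in ssy1KO and -0.13 in ssy1T9, beside 0.00 for all genes in both comparisons. Members below 0 numbered 50 of 67 in ssy1KO and 57 of 67 in ssy1T9, where 49.7% and 50.6% of all genes were below 0. Without centring both medians turned positive, to 0.075 and 0.04. The calls then became 9 higher and 0 lower in ssy1KO and 4 higher and 0 lower in ssy1T9. In the same fit 1807 of all 5711 genes were higher and 155 lower in ssy1KO, and 1838 and 176 in ssy1T9. The lower median thus describes the members' place among all genes.

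No member differed by as much as 2-fold, a size that 77 and 79 of all 5711 genes reached in ssy1KO and ssy1T9. Members ranged from -0.32 to 0.38 in ssy1KO and from -0.40 to 0.27 in ssy1T9, with SDs across members of 0.14 and 0.13. For all 67 members the 95% confidence interval of the difference, not adjusted for the number of genes, lay inside a 1.5-fold change in both comparisons. Of all genes 92.5% and 91.9% met that bound. Tested with limma against a 1.2-fold change, 0 members were called in either mutant, also at an unadjusted p under 0.05, where 4.64% and 4.96% of all genes were called after adjustment.

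**Figure D1:**
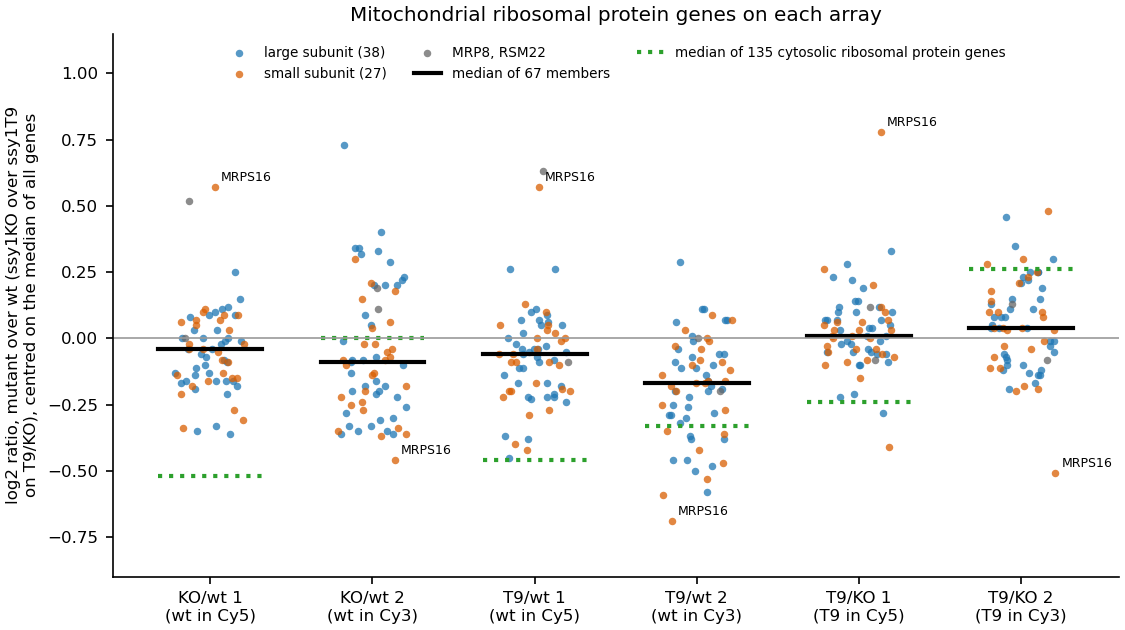
Centred log2 ratios of the 67 members on each of the 6 arrays, as mutant over wt or, on T9/KO, ssy1KO over ssy1T9; each point is a gene, black bars are member medians and dotted bars medians of 135 cytosolic ribosomal protein genes. Member medians stay between -0.17 and 0.04, while MRPS16 is among the members farthest from 0 on every array, with a sign that follows the dye.

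On the single arrays the members' medians were -0.04 on KO/wt 1 and -0.09 on KO/wt 2. The T9/wt arrays gave -0.06 and -0.17, and the T9/KO arrays, read as ssy1KO over ssy1T9, gave 0.01 and 0.04. All 4 arrays with wt therefore had the median member below the median gene, T9/wt 2 by the most.

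The differences among members were poorly shared between the arrays of a pair. Of 67 members, 28 were below 0 on both KO/wt arrays, 6 above 0 on both, and 29 had opposite signs. The T9/wt pair gave 38, 4 and 20. Across members, which share the arrays and are not independent, Pearson's r between the arrays of a pair was 0.09 for KO/wt and -0.06 for T9/wt. Leaving out MRPS16 gave 0.21 and 0.09, and all genes gave 0.55 and 0.67. Spearman's rho was 0.09 and 0.03 for the members and 0.28 and 0.41 for all genes. All 11 members called in ssy1KO and all 13 called in ssy1T9 had 1 sign on both of their arrays, which are part of the fit that called them.

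**Figure D2:**
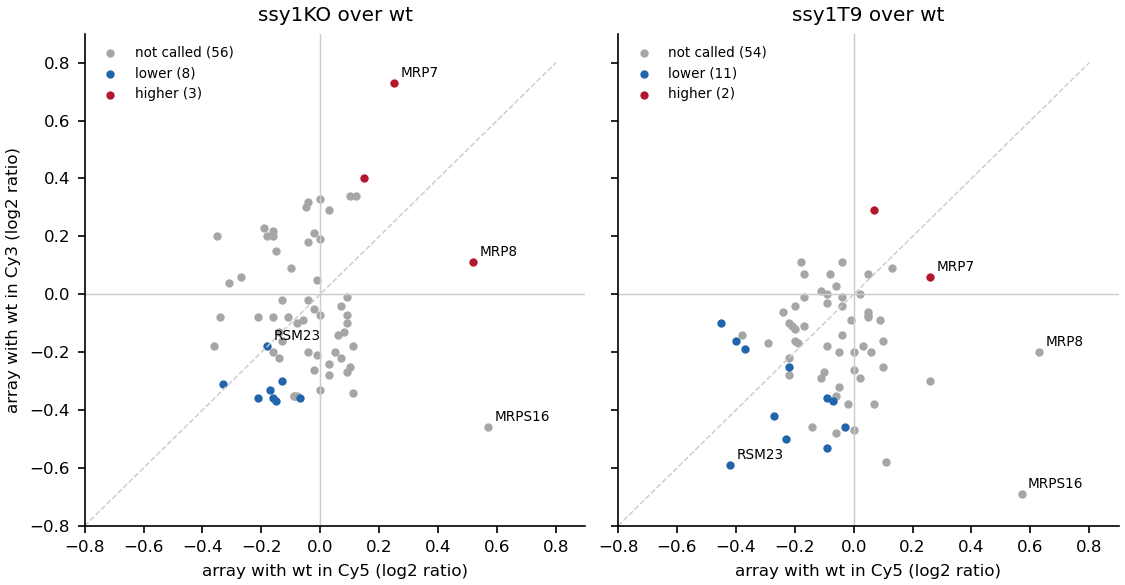
Each of the 67 members on the array with wt in Cy5 (horizontal) and with wt in Cy3 (vertical), as log2 ratio of mutant over wt; the dashed line marks equal readings and colours mark calls of the fit. More members lie below 0 on both arrays than above 0 on both, 28 against 6 in ssy1KO and 38 against 4 in ssy1T9; MRPS16 lies in the corner of opposite signs, and the called members lie in the corners of equal sign.

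MRPS16, the counterpart of bacterial S16, had the largest dye term of the members. Its mutant over wt ratio was 0.57 on KO/wt 1 and 0.57 on T9/wt 1, but -0.46 on KO/wt 2 and -0.69 on T9/wt 2. On T9/KO 1 and 2 it read 0.78 and -0.51. The reading was high wherever the second strain of the ratio was in Cy5 and low where the dyes were exchanged, whichever strains were compared. Its dye term of -0.60 was matched or passed by 9 of 5711 genes, itself included, and the next largest among members was that of MRP8 at 0.20 in size. With the dye term fitted, MRPS16 lay at 0.06 (SE 0.08, adjusted p = 0.604) in ssy1KO and -0.07 (SE 0.08, adjusted p = 0.587) in ssy1T9.

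The calls fell in both subunits, and the difference between subunits was not tested. Of the 38 large subunit genes, 2 were higher and 5 lower in ssy1KO, and 2 were higher and 6 lower in ssy1T9, with medians of -0.09 and -0.15. None of the 27 small subunit genes was higher in either mutant, and 3 were lower in ssy1KO and 5 in ssy1T9, with medians of -0.09 and -0.10. Of the large subunit genes 5.26% were higher and 13.2% lower in ssy1KO, and 5.26% and 15.8% in ssy1T9. Of the small subunit genes 11.1% and 18.5% were lower. Of all genes 13.8% were higher and 10.5% lower in ssy1KO, and 14.1% and 12.1% in ssy1T9. At an unadjusted p under 0.05 limma had 6 and 9 small subunit genes in all, beside 1991 and 2083 of all 5711 genes.

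Among the large subunit genes, MRPL13, whose product has no bacterial counterpart, was low on all 4 arrays with wt. It read -0.17 and -0.33 on KO/wt 1 and 2, -0.23 and -0.50 on T9/wt 1 and 2, and -0.06 and -0.12 as ssy1KO over ssy1T9. The fit placed it at -0.32 in ssy1KO (SE 0.08, adjusted p = 0.00464), a 1.25-fold fall, and at -0.30 in ssy1T9 (SE 0.08, adjusted p = 0.00715). It was the only one of the 11 members called in ssy1KO whose call held with each array left out in turn. The ssy1T9 call was lost without T9/wt 1 or T9/wt 2.

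MRPL6, the counterpart of bacterial L6, was low on all 4 arrays with wt. KO/wt 1 and 2 gave -0.33 and -0.31, and T9/wt 1 and 2 gave -0.37 and -0.19. The fit placed it at -0.25 in ssy1KO (SE 0.08, adjusted p = 0.0209) and -0.35 in ssy1T9 (SE 0.08, adjusted p = 0.00195). In ssy1T9, where it was 1.27-fold lower, it was the only one of 13 calls to hold with each array left out. The ssy1KO call was lost without KO/wt 1, KO/wt 2 or T9/wt 1.

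MRPL44, which encodes another protein without a bacterial counterpart, read -0.16 and -0.36 against wt in ssy1KO and -0.03 and -0.46 on the T9/wt arrays. Both lower readings came from the arrays with wt in Cy3. It fell to -0.24 in ssy1KO (SE 0.08, adjusted p = 0.0286) and -0.27 in ssy1T9 (SE 0.08, adjusted p = 0.0117). The ssy1KO call was lost without KO/wt 1, KO/wt 2, T9/wt 2 or T9/KO 1, and the ssy1T9 call without KO/wt 1 or T9/wt 2.

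MRPL3 and MRPL11 were called in ssy1KO but not in ssy1T9. MRPL3 encodes a protein related to ribonuclease III and lay at -0.24 (SE 0.08, adjusted p = 0.0231) and -0.19 (adjusted p = 0.0721). MRPL11 encodes the counterpart of bacterial L10, at the base of the ribosomal stalk. Its KO/wt readings were -0.07 and -0.36 and its T9/wt readings 0.11 and -0.58, so that the arrays of a pair differed more than the strains did. Its values were -0.24 (SE 0.09, adjusted p = 0.0481) in ssy1KO and -0.21 (adjusted p = 0.0916) in ssy1T9. Both genes lost the ssy1KO call without KO/wt 1, KO/wt 2 or T9/KO 1, MRPL3 also without T9/wt 1 and MRPL11 also without T9/wt 2.

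MRPL25, MRPL37 and MRPL49 were called lower in ssy1T9 but not in ssy1KO. MRPL49 encodes the counterpart of bacterial L21 and the other two encode proteins without one. They lay at -0.24, -0.22 and -0.24 in ssy1T9 (adjusted p = 0.0271, 0.0415 and 0.0222) and at -0.14, -0.13 and -0.16 in ssy1KO. MRPL37 was at -0.35 on KO/wt 1 and 0.20 on KO/wt 2, and at -0.45 and -0.10 on the T9/wt arrays. The low readings of MRPL37 thus came with wt in Cy5, opposite to MRPL44. In the test of the difference between the mutants none of these 3 was called, with an adjusted p of 0.964 for each. All 3 calls were lost without KO/wt 1, T9/wt 1 or T9/wt 2, and also without T9/KO 1 for MRPL37 and MRPL49 or T9/KO 2 for MRPL25.

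MRP7, which encodes the counterpart of bacterial L27 near the peptidyl transferase centre, rose in both mutants. It read 0.25 and 0.73 on KO/wt 1 and 2 and 0.26 and 0.06 on T9/wt 1 and 2. All 4 readings were above 0, but KO/wt 2 stood far above the rest. The fit gave 0.38 in ssy1KO (SE 0.09, adjusted p = 0.00397), or 1.30-fold, and 0.27 in ssy1T9 (SE 0.09, adjusted p = 0.0362). Without KO/wt 2 the ssy1KO value was 0.17 and was not called, and without KO/wt 1 it was 0.45 and was not called either. The ssy1T9 call held with T9/wt 2 left out and was lost with any of the other 5, at values from 0.16 to 0.42 over the 6.

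MRPL4 encodes the counterpart of bacterial L29, which lies by the exit of the peptide tunnel. Its readings were 0.12 and 0.34 on KO/wt 1 and 2, 0.07 and 0.29 on the T9/wt arrays, and -0.28 and -0.14 as ssy1KO over ssy1T9. It was called in ssy1T9 at 0.27 (SE 0.08, adjusted p = 0.0156) and not in ssy1KO at 0.14 (adjusted p = 0.211). The ssy1T9 call was lost without KO/wt 1 or T9/KO 1. MRPL36, the counterpart of bacterial L31, missed the threshold in ssy1KO at 0.20 (adjusted p = 0.0647) and lay at 0.06 in ssy1T9. MRP20, which encodes the counterpart of L23 at the same exit, lay at 0.14 and 0.02.

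**Figure D3:**
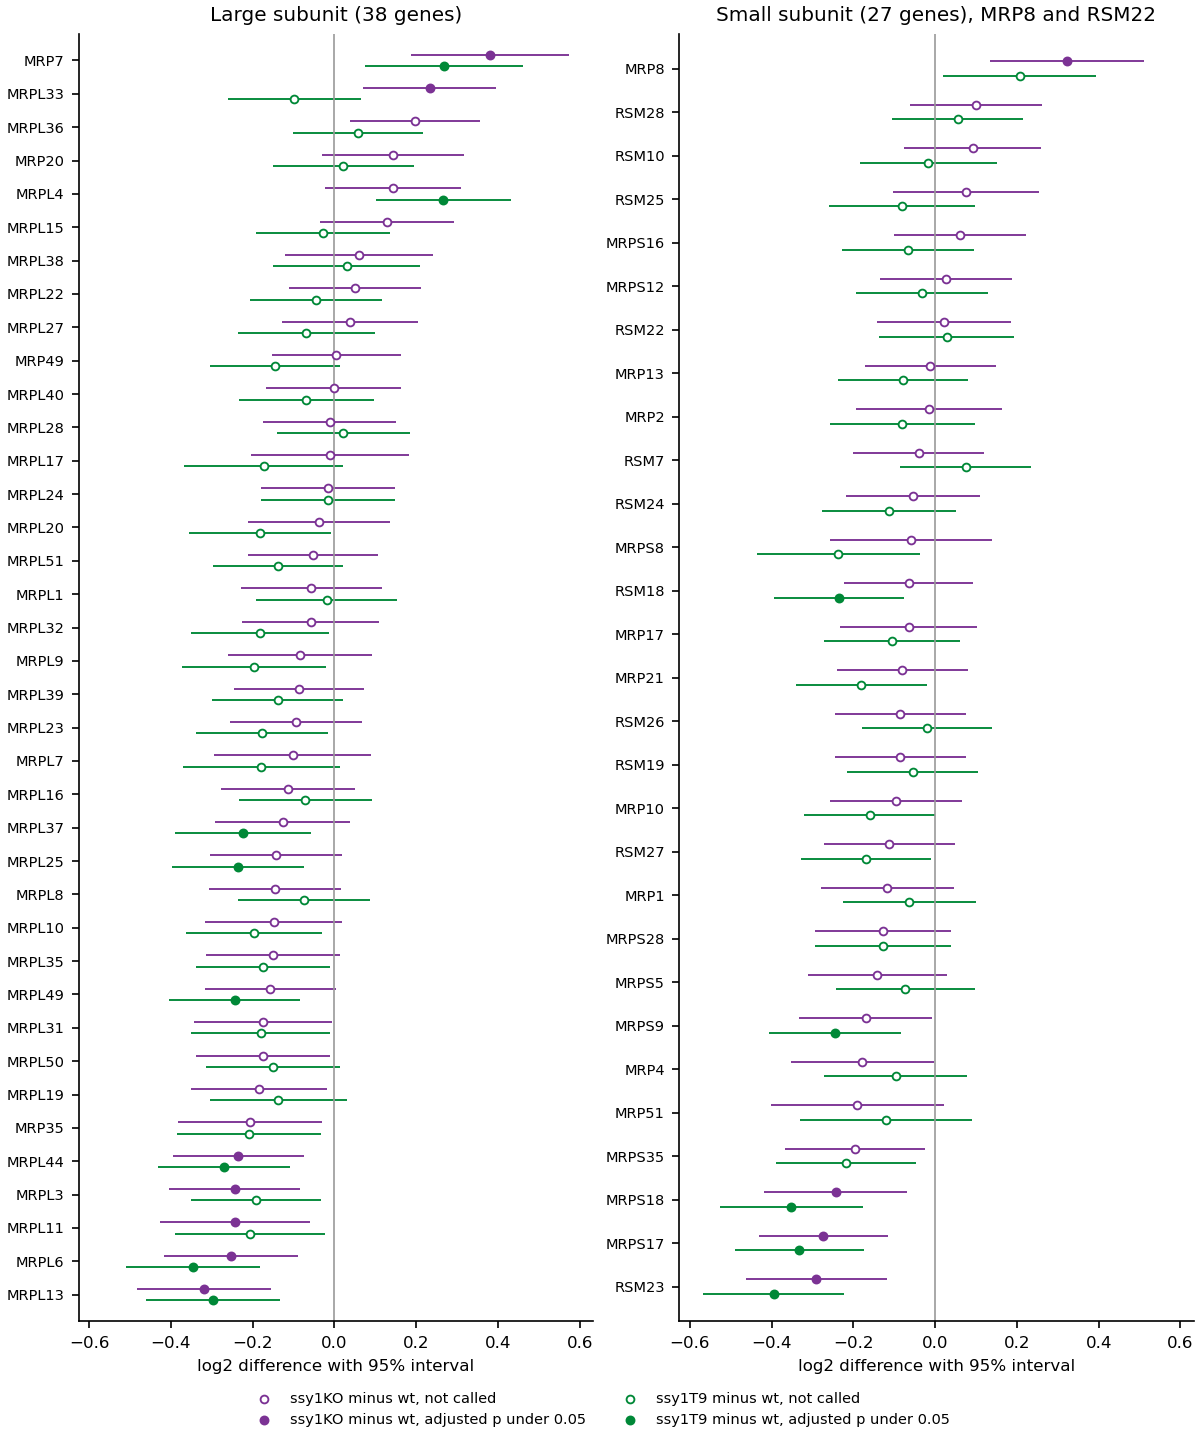
Fitted log2 difference from wt of each of the 67 members, with its 95% interval, for ssy1KO (purple) and ssy1T9 (green); filled points passed an adjusted p of 0.05. The large subunit is on the left, from MRP7 at 0.38 in ssy1KO down to MRPL13 at -0.32, and the small subunit with MRP8 and RSM22 is on the right.

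Among the small subunit genes RSM23 was lowest. Its product is the yeast relative of the mammalian protein DAP3. It read -0.18 on both KO/wt arrays, and -0.42 and -0.59 on the T9/wt arrays. The T9/KO arrays, as ssy1KO over ssy1T9, gave -0.04 and 0.03. Both T9/wt readings were below both KO/wt readings, yet the mutants differed by 0.10 with SE 0.08 (adjusted p = 0.957). RSM23 was 1.22-fold lower in ssy1KO (log2 -0.29, SE 0.08, adjusted p = 0.0127) and 1.31-fold lower in ssy1T9 (log2 -0.40, SE 0.08, adjusted p = 9.7e-04). The ssy1KO value, from the fit over all 6 arrays, lay below both KO/wt readings. The ssy1T9 call was lost without T9/wt 2, and the ssy1KO call without KO/wt 1, T9/wt 1, T9/wt 2 or T9/KO 1.

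MRPS17 and MRPS18, counterparts of bacterial S17 and S11, fell in both mutants too. MRPS17 read -0.15 and -0.37 on KO/wt 1 and 2, and -0.27 and -0.42 on T9/wt 1 and 2. Every reading was below 0, and the fit gave -0.27 in ssy1KO (SE 0.08, adjusted p = 0.0102) and -0.33 in ssy1T9 (SE 0.08, adjusted p = 0.00206). With single arrays left out, the ssy1KO call was lost only without KO/wt 1, where the value was -0.30, and the ssy1T9 call only without T9/wt 1. MRPS18 read -0.21 and -0.36, then -0.09 and -0.53, and lay at -0.24 (SE 0.08, adjusted p = 0.0384) and -0.35 (SE 0.08, adjusted p = 0.00312). Without T9/wt 2 the ssy1T9 value of MRPS18 was -0.28 and was not called. Its ssy1KO call was lost without KO/wt 1, KO/wt 2, T9/wt 2 or T9/KO 1.

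MRPS9 and RSM18, counterparts of bacterial S9 and S18, were called in ssy1T9 at -0.24 and -0.23 (SE 0.08 for both, adjusted p = 0.0228 and 0.0249). In ssy1KO they were at -0.17 and -0.07 (adjusted p = 0.123 and 0.574). Both calls were lost without KO/wt 1, T9/wt 1, T9/wt 2 or T9/KO 1. MRPS8, the counterpart of S8, lay at -0.24 in ssy1T9 without a call (adjusted p = 0.0737), and RSM7, the highest small subunit gene of that mutant, at 0.07 (adjusted p = 0.527).

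Members with and without a bacterial counterpart had similar medians, a difference that was not tested. The 41 with one had medians of -0.08 in ssy1KO and -0.10 in ssy1T9, with 2 higher and 4 lower, then 2 higher and 6 lower. The 24 without one had medians of -0.09 and -0.16, with 4 and 5 lower and none higher. With a counterpart 4.88% were higher and 9.76% lower in ssy1KO, and 4.88% and 14.6% in ssy1T9. Without one 16.7% and 20.8% were lower. Of all genes 13.8% were higher and 10.5% lower in ssy1KO, and 14.1% and 12.1% in ssy1T9. At an unadjusted p under 0.05 limma had 6 and 11 of the 24 without a counterpart in all. It had 1991 and 2083 of all 5711 genes at that threshold.

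MRP8 was called higher in ssy1KO, within the range of the structural genes. It read 0.52 on KO/wt 1, 0.11 on KO/wt 2, 0.63 on T9/wt 1 and -0.20 on T9/wt 2. High readings came from both arrays with wt in Cy5. It was called in ssy1KO at 0.32 (SE 0.09, adjusted p = 0.0107) and not in ssy1T9 at 0.21 (adjusted p = 0.0997). The call was lost without KO/wt 1, KO/wt 2 or T9/wt 1. RSM22 lay at 0.02 and 0.03 (adjusted p = 0.874 and 0.838). Without MRP8 and RSM22, a choice made after their values were seen, 10 members were called in ssy1KO and 13 in ssy1T9. These were 15.4% and 20.0% of 65 members, beside 24.3% and 26.2% of all genes.

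Comparisons of the mutants with wt share the wt strain, so calls in common are listed and nothing is read from them. Called lower in both were MRPL13, MRPL44, MRPL6, MRPS17, MRPS18 and RSM23, and called higher in both was MRP7. Over all genes 493 were lower in both, of 597 in ssy1KO and 691 in ssy1T9, and 637 were higher in both, of 789 and 803.

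Between the mutants no member was called by limma, beside 0.298% of all genes, with 0.14% higher and 0.158% lower in ssy1KO. At an unadjusted p under 0.05 there were 2 members, MRPL33 and RSM18, beside 310 of all 5711 genes. All 67 intervals of the difference between the mutants lay inside a 1.5-fold change and 44, or 65.7%, inside a 1.2-fold change. Of all genes 99.6% and 72.2% met those bounds. The median member was at 0.06 in ssy1KO over ssy1T9. After MRPL33 the largest positive values were 0.18 for MRPS8, 0.17 for RSM18 and 0.16 for MRPL17 and RSM25. At the other end stood MRPL4 at -0.12, RSM7 at -0.11, MRP4, the counterpart of bacterial S2, at -0.08, and MRP51 and MRPL8 at -0.07.

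MRPL33, the counterpart of bacterial L30, was the member that differed most between the mutants. KO/wt 1 and 2 gave 0.15 and 0.40, with -0.17 and -0.11 on the T9/wt arrays, and 0.12 and 0.46 as ssy1KO over ssy1T9. The 4 arrays with wt separate by mutant, with both KO/wt readings above 0 and both T9/wt readings below. ssy1KO lay above ssy1T9 by 0.33 (SE 0.08, unadjusted p = 3.2e-04, adjusted p = 0.0918), which missed the threshold. MRPL33 was called against wt in ssy1KO at 0.23 (SE 0.08, adjusted p = 0.0324) and lay at -0.10 in ssy1T9 (adjusted p = 0.4). Centring on all rows of the table, unnamed ones included, brought the difference between the mutants to a call, at 0.345 (adjusted p = 0.0437). Over the other alternatives its adjusted p ran from 0.0505 to 1. The call against wt was lost without KO/wt 1, KO/wt 2 or T9/wt 1.

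The cytosolic ribosomal protein genes are the closest family, and they moved further in the same fit. Of 135, 98 were lower in ssy1KO and 106 in ssy1T9, or 72.6% and 78.5%, and 0 were higher. Their medians were -0.31 and -0.35, beside -0.08 and -0.13 for the mitochondrial genes, and no test of that gap between families was made. The cytosolic family depended on the array: its median was -0.52 on KO/wt 1 and 0.00 on KO/wt 2, and -0.46 and -0.33 on the T9/wt arrays. On T9/KO 1 and 2, as ssy1KO over ssy1T9, that median was -0.24 and 0.26. Opposite signs on the arrays of a pair were found for 67 of the 135 genes on KO/wt, 18 on T9/wt and 118 on T9/KO. Without a dye term 18 and 36 cytosolic genes were called lower, without KO/wt 1 24 in ssy1KO, and without T9/wt 2 49 in ssy1T9. The same fits called 286 and 343 of all 5711 genes lower without a dye term, 255 without KO/wt 1 and 431 without T9/wt 2. From the 2 arrays of the pair alone limma called 0 cytosolic genes in either mutant, with 13 and 77 at an unadjusted p under 0.05. Over all genes that fit called 2.82% and 1.19%. On KO/wt 2 the mitochondrial median of -0.09 thus lay below the cytosolic one.

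**Figure D4:**
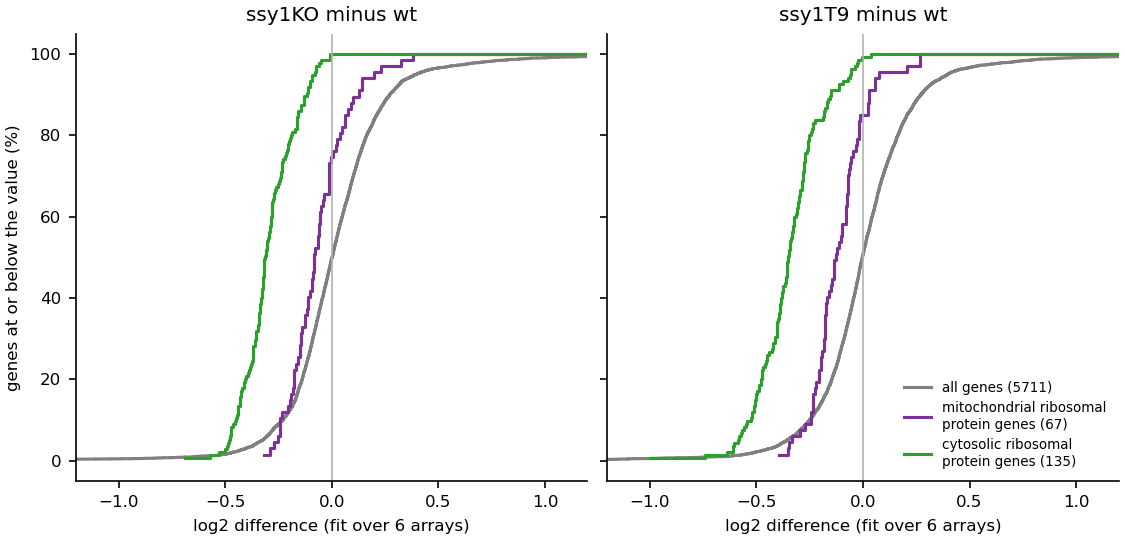
Share of genes (%) at or below each fitted log2 difference from wt, for all 5711 genes, the 67 mitochondrial and the 135 cytosolic ribosomal protein genes. The mitochondrial curve lies left of that of all genes at the middle, with medians of -0.08 and -0.13. Of the members 74.6% and 85.1% lie below 0, against 49.7% and 50.6% of all genes. The cytosolic curve has medians of -0.31 and -0.35.

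Another 14 mitoribosomal proteins have names outside the rule, and 1 of them was called in both mutants. That is 7.14% of the list, beside 24.3% and 26.2% of all genes. MNP1, the counterpart of the bacterial stalk protein, read -0.22 and -0.25 on KO/wt 1 and 2, and -0.25 and -0.32 on the T9/wt arrays. All 4 readings were low and close to each other, and it fell to -0.21 in ssy1KO (SE 0.08, adjusted p = 0.0475) and -0.31 in ssy1T9 (SE 0.08, adjusted p = 0.00374). The ssy1KO call held with T9/KO 2 left out and was lost with each of the other 5, while the ssy1T9 call held with each array left out. Medians of the 14 were 0.00 and -0.03.

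Other genes of mitochondrial translation are read against the same background of 24.3% and 26.2% of all genes called. Of 17 translation factors, methyltransferases and assembly GTPases, 2 were higher in both mutants and 0 lower, with medians of 0.00 and 0.04. They were MRM1, encoding a methyltransferase of the large ribosomal RNA, at 0.41 in both (SE 0.09, adjusted p = 0.00225 and 0.00201), and AIM23, encoding an initiation factor, at 0.33 and 0.28. MRM1 lost the ssy1KO call without KO/wt 1, or without KO/wt 2, where it stood at 0.20. AIM23 lost its ssy1KO call without KO/wt 1 or KO/wt 2 and its ssy1T9 call without KO/wt 1. Of 13 mitochondrial aminoacyl-tRNA synthetase genes limma called 0 in either mutant, with 4 and 1 at an unadjusted p under 0.05. That unadjusted threshold took in 1991 and 2083 of all 5711 genes.

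Among 19 genes for translational activators and membrane factors, 3 were higher and 1 lower in ssy1KO, and 1 higher and 1 lower in ssy1T9, or 21.1% and 10.5% called. PET494, which activates translation of a cytochrome oxidase subunit, lay at 0.31 and 0.29 (adjusted p = 0.0124 and 0.0172). CBP6 and ATP22, which serve cytochrome b and ATP synthase translation, were called in ssy1KO at 0.25 and 0.26, calls that were lost without KO/wt 1 or KO/wt 2. PET494 lost its calls without KO/wt 1, KO/wt 2 or T9/wt 1, and that in ssy1T9 also without T9/KO 1. MBA1, encoding the receptor that ties the mitochondrial ribosome to the inner membrane, fell to -0.26 in ssy1KO (SE 0.08, adjusted p = 0.0222) and -0.34 in ssy1T9 (SE 0.08, adjusted p = 0.00316). Its ssy1T9 call was lost without T9/wt 1, and its ssy1KO call without KO/wt 1, T9/wt 1 or T9/KO 2.

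Of 10 regulators of mitochondrial gene expression, PUF3 moved most. Puf3 binds messages of nuclear genes for mitochondrial proteins, those of mitochondrial ribosomal proteins prominent among them, and promotes their decay in glucose. PUF3 read -0.89 and -0.40 on KO/wt 1 and 2, and -0.70 and -0.55 on T9/wt 1 and 2, below 0 on all 4. It was 1.54-fold lower in ssy1KO (log2 -0.62, SE 0.08, adjusted p = 1.6e-06) and 1.57-fold lower in ssy1T9 (log2 -0.65, SE 0.08, adjusted p = 7.7e-07). Both calls held under 14 of 15 alternatives, each array left out among them.

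HAP4, the activating subunit of the factor that induces respiratory genes, was called in ssy1T9 at 0.26 (SE 0.08, adjusted p = 0.0149). In ssy1KO it stood at 0.21 (adjusted p = 0.0548). ABF2, encoding the packaging protein of mitochondrial DNA, was called lower in ssy1T9 at -0.26 (adjusted p = 0.0178) and lay at -0.18 in ssy1KO (adjusted p = 0.107). Both ssy1T9 calls were lost without KO/wt 1 or T9/KO 1, and that of HAP4 also without T9/wt 2.

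The genes next to members were called about as often as all genes. In the R64 reference order there were 125 pairs of a member and an adjacent measured gene that is no member, with KKQ8 counted for both MRPL38 and MRP49. Of these neighbours 13 were higher and 14 lower in ssy1KO, and 14 and 18 in ssy1T9. Their shares were 21.6% and 25.6%, beside 24.3% and 26.2% of all genes. By orientation the shares differed: 22.9% of divergent and 35.3% of tandem neighbours were called in either mutant. Of convergent neighbours 2.56% were called in ssy1KO and 15.4% in ssy1T9. For the 35 divergent neighbours, which face away from the member across a shared upstream region, Pearson's r between the member's and the neighbour's value was 0.35 in both mutants, and Spearman's rho was 0.37 in ssy1KO and 0.22 in ssy1T9. For 39 convergent and 51 tandem neighbours r ran from -0.05 to 0.25 and rho from -0.18 to 0.18. These are descriptions over neighbours on the same arrays.

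MRPS17 (YMR188C) diverges from GCV2, which encodes a subunit of the glycine cleavage complex. GCV2 read -0.87 and -1.05 on KO/wt 1 and 2, and -1.10 and -1.04 on T9/wt 1 and 2. It fell to -0.93 in ssy1KO with SE 0.08 and adjusted p = 2.1e-09, and to -1.10 in ssy1T9 with SE 0.08 and adjusted p = 8.8e-11. MRPS17 was lower as well, at -0.27 and -0.33. MRPL6 (YHR147C) diverges from IMP3, a gene of the small subunit processome, which lay at -0.26 and -0.29 (adjusted p = 0.0173 and 0.00654). IMP3 lost both calls without T9/wt 2, and that in ssy1KO also without KO/wt 1 or T9/KO 1. MRPL13 (YKR006C) went the other way from its divergent neighbour MEH1, which encodes a vacuolar protein of the EGO complex and lay at 0.23 and 0.22 (adjusted p = 0.0328 and 0.0366). The ssy1T9 call of MEH1 was lost with any array left out, and that in ssy1KO without KO/wt 1, KO/wt 2, T9/wt 1 or T9/KO 1.

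MRPS9 (YBR146W) lies between ADH5 and RTC2 in tandem, and both were higher in both mutants. ADH5, encoding an alcohol dehydrogenase, lay at 0.65 and 0.49, and RTC2, encoding a vacuolar membrane protein, at 0.66 and 0.65. MRPS9 was at -0.17 and -0.24 between them. MRPL44 (YMR225C) lies in tandem with ORA1, encoding a dehydrogenase, which lay at 0.32 and 0.41 while MRPL44 fell. MRPL11 (YDL202W) lies in tandem with TRM8, encoding a tRNA methyltransferase subunit, which lay at -0.26 and -0.27. MRP8 (YKL142W) lies in tandem with LTV1, an assembly factor gene of the cytosolic small subunit, which lay at -0.36 and -0.23 where MRP8 was higher. MRPL4 (YLR439W) diverges from LSM3, of the RNA-binding Lsm ring, at 0.39 in ssy1KO and 0.19 without a call in ssy1T9. MRPS18 (YNL306W) converges with BXI1, of the Bax inhibitor family, called at 0.25 in ssy1T9. GCV2, ADH5, RTC2 and LSM3 kept their calls with each array left out, and ORA1 kept that in ssy1T9. TRM8 and ORA1 lost calls in ssy1KO without KO/wt 1 or KO/wt 2, TRM8 also without T9/KO 1 and, in ssy1T9, without T9/wt 2. LTV1 lost its ssy1KO call without KO/wt 1 and its ssy1T9 call with any array but T9/KO 1 left out, and BXI1 with any but KO/wt 2 or T9/KO 2.

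**Figure D5:**
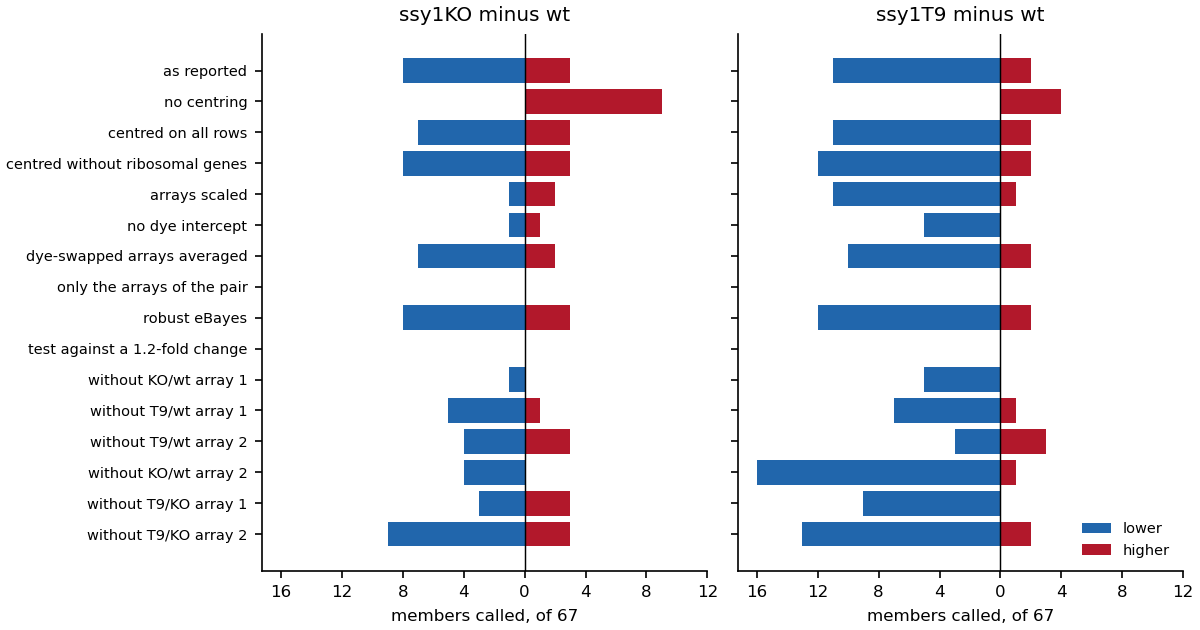
Number of the 67 members called lower (left of 0) and higher (right of 0) than wt in the reported fit and under 15 alternatives, for ssy1KO and ssy1T9. The reported fit has 8 and 3 in ssy1KO and 11 and 2 in ssy1T9; without centring the bars lie only on the higher side, and 2 alternatives have none.

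The counts of called members depended on single arrays. Against 11 with all arrays, the ssy1KO count was 1 without KO/wt 1, 4 without KO/wt 2, 6 without T9/wt 1 or T9/KO 1, 7 without T9/wt 2 and 12 without T9/KO 2. Against 13, the ssy1T9 count was 5 without KO/wt 1, 6 without T9/wt 2, 8 without T9/wt 1, 9 without T9/KO 1, 15 without T9/KO 2 and 17 without KO/wt 2. Over all genes the share called changed as well. In ssy1KO it was 11% without KO/wt 1, 16.4% without KO/wt 2, 17.5% without T9/wt 1 and 17.4% without T9/KO 1. It was 24.7% without T9/wt 2 and 26.5% without T9/KO 2. In ssy1T9 the share was 17.8% without KO/wt 1, 19.6% without T9/wt 2, 13.9% without T9/wt 1 and 19.9% without T9/KO 1. Without T9/KO 2 it was 24.3%, and without KO/wt 2 it was 25.5%. The members' median kept its sign throughout, between -0.09 and -0.06 in ssy1KO and between -0.14 and -0.09 in ssy1T9.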

How the data were processed

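The deposited value table holds 1 log ratio per spot for 7744 rows and 6 arrays, with 0 missing values. Per the labels, RNA was labelled with the Genisphere 3DNA system. Scanner, background correction, normalization, log base and direction are not stated in the labels; the deposited values were taken as log2 ratios of Cy5 over Cy3. Spot intensities were not used here, so depth and dim spots could not be weighed; the number of arrays limits the precision, with a median SE of 0.08.

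Platform annotation named 6116 rows, of which 6111 matched R64 reference names by gene identifier. Spots of a gene were averaged, giving 5711 genes. The gene median of every array was set to 0. limma 3.58.1 in R 4.3.3 (lmFit, eBayes) fitted, per gene, a dye intercept plus 1 term for either mutant against wt, with 3 residual and 20.7 prior degrees of freedom. Tests were two-sided with Benjamini-Hochberg adjustment over all genes. The fit was tested on simulated data.

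Members and gene lists were chosen with earlier results of these data known. Named are the called members, the 5 largest differences of each sign per comparison, RSM22, MRP8, called genes of the other lists and called neighbours of called members; 15 alternatives were run. MRPS16 was added after its values were seen. Array numbers follow accession order and pair nothing. Promoter motifs were not searched here.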

Additional observations from a re-analysis of the deposited data

How the results depend on the processing

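Array numbers only name the arrays of a pair, so arrays of different strain pairs could not be matched by number. Without centring the median over members turned to 0.075 in ssy1KO and 0.0433 in ssy1T9. In ssy1T9 4 members, all higher, were then called where 13 were called after centring. Of all genes 34.4% and 35.3% were called without centring. Scaling the arrays to one spread left 3 members called in ssy1KO, beside 15.5% of all genes. It put the members' median of ssy1KO over ssy1T9 at 0.0801. Without a dye term 2 and 5 members were called in ssy1KO and ssy1T9, beside 13% and 14.2% of all genes. From the 2 arrays of each pair alone limma called 0 and 0 members (1 and 5 at an unadjusted p under 0.05). That fit had 1 residual degree of freedom and no dye term, and called 2.82% and 1.19% of all genes. Against a 1.2-fold change 0 and 0 members were called, beside 4.64% and 4.96% of all genes. Centring on all rows of the table called 1 member, MRPL33, between the mutants, beside 0.368% of all genes. With each array left out in turn, 1 to 12 members were called in ssy1KO, 5 to 17 in ssy1T9 and 0 between the mutants. Of all genes 11% to 26.5% were called in ssy1KO, 13.9% to 25.5% in ssy1T9 and 0.123% to 0.333% between the mutants. The members' median of ssy1KO over ssy1T9 ran from 0.0283 to 0.0683. Averaging dye-swapped arrays first gave 9 and 12 calls, robust variance estimates 11 and 14, and centring without ribosomal protein genes 11 and 14. Those settings called 22.3% to 24.7% of all genes in ssy1KO and 23.6% to 26.4% in ssy1T9. No called member changed sign under any of the 15 alternatives; calls held under 5 to 12 of them in ssy1KO and 6 to 12 in ssy1T9. Added after the data were seen, the 14 proteins with other names brought the counts to 12 and 14. These were 14.8% and 17.3% of 81 genes, beside 24.3% and 26.2% of all genes. Fits with an array left out also had fewer arrays, and the causes of these changes were not tested.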
